A study of Caenorhabditis elegans with 66 samples.

Results

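Small RNAs of whole Caenorhabditis elegans were sequenced to ask which loci make 21-base piRNAs at 2 ages, and how mutants of small RNA pathways change them. The loci described here are those on chromosome IV to which the submitters gave names beginning with novel_21ur, in place of an annotated 21ur name. They were taken by name and chromosome from the deposited coordinate table, with 4 names left out by the rule of choice, which left 839 loci of 13211 in that table, where 1751 loci on all chromosomes carry such a name. The comparison set was the 11311 annotated chromosome IV loci of the same table. Apart from the 4 names left out, the choice went by name and chromosome, and it was made with earlier results of these data known.

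Each group was 1 genotype at 1 age, with 3 libraries from whole animals at 48 h (L4 larvae) or at 72 h (gravid adults). The mutants were snpc-1.2(-), snpc-1.3(-), the snpc-1.2(-); snpc-1.3(-) double mutant, hrde-1(-), mut-16(-) and prg-1(-), with alleles not given in the sources used here. Libraries came in 3 sets, each with its own wild type, which the sample titles name N2. The snpc-1.2 and snpc-1.3 single mutants belonged to set A. The double mutant, hrde-1, mut-16 and prg-1 belonged to set B. Wild type alone was used of set C. In all, 54 libraries in 18 groups were analysed, and mutant libraries were set against the wild-type libraries of the same set and age. Nothing in the labels says that replicates came from separate cultures, so p-values measure the spread between these libraries, which may be technical.

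piRNAs of the worm are short RNAs that begin with U and are bound by PRG-1, a Piwi-type Argonaute protein, in the germ line, where they mark RNAs for silencing. Most worm piRNA genes are short units of their own in piRNA-rich parts of chromosome IV. SNPC-1.2 and SNPC-1.3 are related to SNAPC1, a subunit of a transcription complex that acts on small RNA genes. L4 hermaphrodites are making sperm and gravid adults are making oocytes. Downstream of piRNAs, MUT-16 builds the foci in which RNA-dependent polymerases copy target mRNAs into antisense secondary small RNAs, some of which are bound by HRDE-1, a nuclear Argonaute.

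The 839 novel_21ur loci fell into 3 classes by position and sequence. The first class, 380 loci, overlapped an annotated locus on the same strand, and in 261 of these the starts differed by 1 base. The second class, 34 loci, had the same 21 bases as an annotated chromosome IV locus elsewhere. The remaining 425 loci, called separate here, did neither. The sequences below show the 3 classes, 5′ to 3′ as DNA, with the coordinates of the WBcel235 build. In overlapping pairs and in identical copies, capitals mark the bases shared with the partner, and in separate loci the capital marks the first base. The first pair includes the most abundant novel_21ur locus, novel_21ur-1336 (chrIV:16629789-16629809, plus strand), and the pair of novel_21ur-1358 (chrIV:16664728-16664748, plus strand) is an abundant pair of 48 h larvae. In the third pair, novel_21ur-1381 (chrIV:16687492-16687512, plus strand) starts 1 base before its partner. The identical copies, novel_21ur-1122 (chrIV:15157307-15157327, minus strand) and 21ur-3627 (chrIV:15162814-15162834, plus strand), lie on opposite strands. The separate locus novel_21ur-0962 (chrIV:14009484-14009504, plus strand) is the most abundant of its class.
novel_21ur-1336: TAGATAGAGACTGCATGATTt
21ur-2235: tTAGATAGAGACTGCATGATT
novel_21ur-1358: TTGACTGTCGAAGACCATTTc
21ur-4621: cTTGACTGTCGAAGACCATTT
novel_21ur-1381: tTGAATTTAGTCTGTGGAAGG
21ur-13272: TGAATTTAGTCTGTGGAAGGt
novel_21ur-1122: TATTACGACTCAACGACTAAC
21ur-3627: TATTACGACTCAACGACTAAC
novel_21ur-0962: Tcttgaatatttataactttg

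A second set of separate loci is shown because the results in prg-1, mut-16 and hrde-1 turn on it. The first 5 lie on the strand opposite to an exon of a protein-coding gene. novel_21ur-0638 (chrIV:1980277-1980297, minus strand) lies against Y76B12C.8 and novel_21ur-0858 (chrIV:9103917-9103937, plus strand) against C01F6.14. novel_21ur-0864 (chrIV:9225838-9225858, minus strand) lies against C46C2.3 and novel_21ur-0880 (chrIV:10355681-10355701, plus strand) against R11A8.1. novel_21ur-0897 (chrIV:12035670-12035690, minus strand) lies against sqst-1, which encodes a receptor for selective autophagy. The last 2 sequences overlap each other outside the annotated genes and were high in hrde-1, novel_21ur-0903 (chrIV:12508170-12508190, plus strand) and novel_21ur-0904 (chrIV:12508178-12508198, plus strand). The capital is again the first base.
novel_21ur-0638: Tttcttccgagtcccttgtag
novel_21ur-0858: Tcatatatggacttatcggaa
novel_21ur-0864: Ttttacgattttctttgacga
novel_21ur-0880: Tttccaatgctggtatgaact
novel_21ur-0897: Tttttatccatattggcctgt
novel_21ur-0903: Ttttccgcttactttgacgcc
novel_21ur-0904: Ttactttgacgccttgttctt

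All 839 novel_21ur loci were 21 bases long and began with T in the DNA, against 97.5% of the annotated chromosome IV loci. The median GC content was 33.3% in both. The plus strand held 440 novel_21ur loci and the minus strand 399. The piRNA-rich parts were taken as 4.5 to 7.0 Mb (small part) and 13.5 to 17.2 Mb (large part). The small part held 152 novel_21ur loci (18.1%), the large part 544 (64.8%), and 143 (17.0%) lay outside both. Outside the annotated genes lay 482 novel_21ur loci (57.4%), while 105 (12.5%) lay on the strand opposite to an exon.

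Many of the 261 pairs that differed by 1 base had nearly the same counts, but others did not. Over all wild-type libraries, the median novel_21ur locus of these pairs had 98.5% of the counts of its annotated partner. Of the 261, 134 were within 5% of the partner and 82 were under 50% of it. Where the novel_21ur locus started 1 base after its partner (126 pairs), the median was 99.5%, with 19 under 50%. Where it started 1 base before (135 pairs), the median was 66.4%, with 63 under 50%. Over all 380 overlapping loci the median was 81.4%, with 154 loci under 50% and 20 more than 5% above their partner. The novel_21ur locus stayed at or below its partner in every library in 356 of 380 pairs, and the counts were equal in 10607 of 20520 values, each of 1 pair in 1 library. The bases that the pair share were the same in the deposited sequences of all 380 pairs. How the authors assigned a read that fits both loci is not given in the sources used here, so the counts of an overlapping locus are uncertain. Some pairs, chosen here after their values were seen, had very unequal counts over the wild-type libraries: novel_21ur-0779 held 7719 against 8 in 21ur-5775, and novel_21ur-0971 held 92 against 61106 in 21ur-4375.

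**Figure D1:**
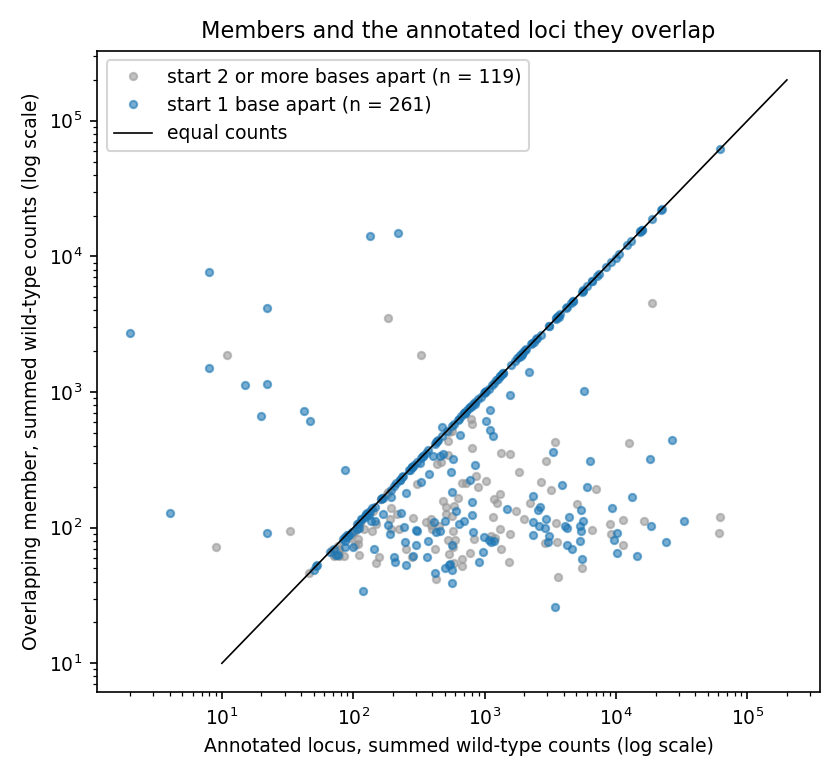
Counts of the 380 overlapping novel_21ur loci (vertical axis) against those of the annotated loci they overlap (horizontal axis), summed over the wild-type libraries, both on log scales; each point is 1 pair, in 1 colour for the 261 pairs that differ by 1 base and another for the 119 other pairs, and the line marks equal counts. Many pairs that differ by 1 base lie along the line, at a median of 98.5%. In 82 of the 261 the novel_21ur locus is under 50% of its partner. Few points lie above the line.

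The 34 identical copies were all on the minus strand of the large part, and their annotated copies were on the plus strand. In 26 of 34 the counts were within 5% of those of the copy. The copies lay 625 to 22697 bases apart by their starts and fell into 16 groups with a common mirror point, of which 7 groups held 25 of the loci, so the copies run in opposite order on opposite strands. A read of such a sequence fits both copies.

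Most separate loci, 285 of 425, lay inside the piRNA-rich parts, but a larger part of them than of annotated loci lay outside. The class was defined by overlapping no annotated locus, and nearly all annotated loci lie in the rich parts. Of 425, 140 (32.9%) lay outside the piRNA-rich parts, against 2.58% of annotated loci, and 99 (23.3%) lay opposite to an exon, against 2.12%. The strand opposite to a protein-coding exon held 73 of them (17.2%), against 1.74% of annotated loci. A start of TT was seen in 58.6% of separate loci and in 34.7% of annotated loci. Both features were more frequent in the separate loci outside the rich parts, where 69 of 140 were opposite to an exon and 94 began with TT, than in the 285 inside, where 30 were opposite to an exon and 155 began with TT. The 73 loci opposite to protein-coding exons lay in 31 genes. They clustered, with 57 of them in 15 genes, 9 in C01F6.14, 7 in Y57G11C.499, 6 in F58D2.4, 5 in Y94H6A.10 and 4 each in sqst-1 and Y67D8C.6. Many overlap each other, so the 73 loci make 56 distinct stretches, and the 9 of C01F6.14 make 2. Whether counting used strand is not given in the sources used here; if it did not, reads of an exon and of its antisense locus cannot be told apart.

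The whole table gave 610946 to 1168689 piRNA counts per wild-type library of sets A and B, and 318641 to 829820 in set C, except for wild type replicate 3 of set C at 72 h, which had 9912. prg-1 libraries had 3167 to 10864 counts, double mutant libraries 16101 to 34162, snpc-1.2 libraries 597470 to 795954 at 48 h and 132848 to 275171 at 72 h, and mut-16 libraries up to 2276260. The tables hold piRNA loci alone, so the depth of the whole small RNA library is unknown, percents of wild type below are raw counts without a depth correction, and no protein-coding gene, the targeted genes included, could be checked. In whole animals, fewer germ cells and less piRNA per cell cannot be told apart.

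Of the 839 novel_21ur loci, 756 passed the filter on low counts, as did 6828 annotated chromosome IV loci. Calls are those of edgeR's quasi-likelihood test, with p adjusted by Benjamini-Hochberg over all 8512 loci tested and a threshold of 0.05. Log2 fold changes are given with their standard errors (SE). Libraries were scaled by TMM, a trimmed mean of log ratios, and for prg-1 and the double mutant by the sum of piRNA counts.

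In wild type the novel_21ur loci took a small share of chromosome IV piRNA counts, 5.29% ± 0.17 in set A at 48 h and 6.04% ± 0.13 at 72 h (SD, n = 3), and 5.42% and 6.09% in set B. In set C the shares were 6.17% and 9.13%, the latter with 15.0% in the library of 9912 counts and 6.18% without it. The most abundant novel_21ur locus, novel_21ur-1336, had a mean level of 4258 CPM (counts per 1000000 piRNA counts) over all wild-type libraries. It differed between sets: at 48 h its libraries held 2386, 3710 and 2214 counts in set A, 3169, 1695 and 2303 in set B, and 81, 49 and 52 in set C. novel_21ur-0962 went the other way, with 196, 537 and 187 counts in set A, 264, 213 and 259 in set B, and 2268, 1209 and 912 in set C. Set C does not overlap the other sets in either locus, while sets A and B overlap in both. Comparisons of mutants were kept within a set. Next in level were novel_21ur-1122 (1866 CPM), novel_21ur-0789 (1686; 1 base from 21ur-4021, in an intron of kcc-2, a potassium chloride cotransporter), novel_21ur-1405 (1600) and novel_21ur-1433 (1591). The median level was 12.4 CPM in overlapping loci, 147 in identical copies, 11.2 in separate loci and 8.34 in annotated loci. The lowest level was 2.39 CPM in novel_21ur loci and 0 in annotated loci, so these medians come from sets with different floors.

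**Figure D2:**
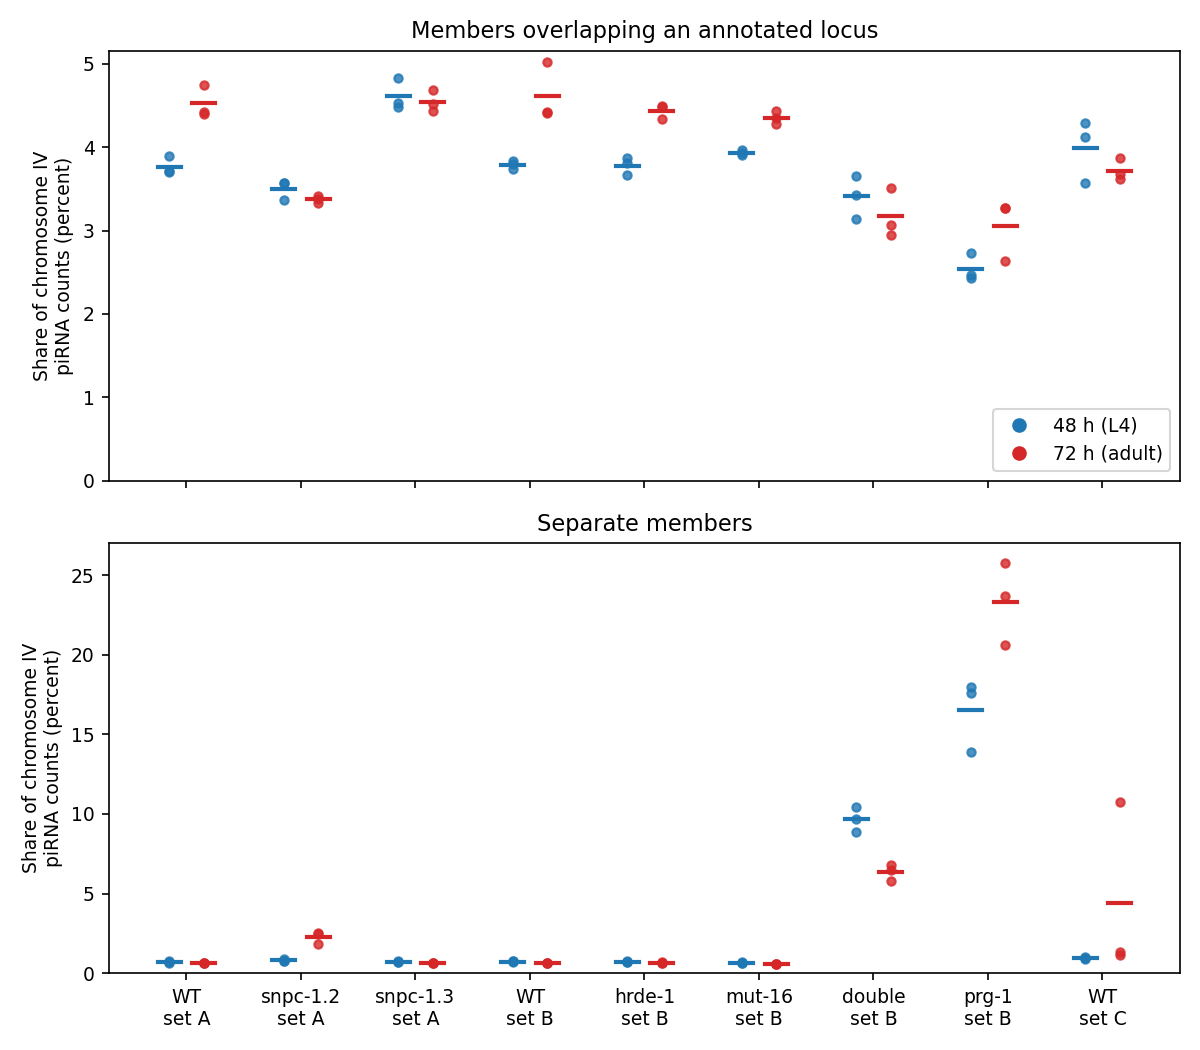
Share of the chromosome IV piRNA counts of each library (vertical axis, percent) that lay in overlapping novel_21ur loci (top panel) and in separate novel_21ur loci (bottom panel); each point is 1 library of the genotype and set on the horizontal axis, in 1 colour for 48 h and another for 72 h, and short lines are group means. Separate loci stay below 1% in wild type of sets A and B and reach 16.5% and 23.3% in prg-1.

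Between the ages, novel_21ur loci changed in both directions in wild type. Of 756 tested, 361 were higher and 265 lower at 72 h, where 41.4% of all loci tested were higher and 42.3% lower. Equal library sizes in place of TMM gave 152 higher and 298 lower, beside 19.6% and 47.2% of all loci, since that scaling moves the median log2 change of all loci tested from 0.07 to -0.75. Of 384 separate loci tested, 212 were higher and 101 lower (82 and 117 with equal library sizes), and of 338 overlapping loci 133 were higher and 149 lower (63 and 165). Of 72 tested loci opposite to protein-coding exons, 50 were higher and 2 lower at 72 h, but 8 and 6 with equal library sizes.

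novel_21ur-1336 was among those higher in adults. At 72 h it held 5419, 7965 and 6689 counts in set A and 6646, 9761 and 9513 in set B, against the 48 h counts given above. The ages do not overlap in either set. Over the 3 sets its log2 change was 1.92 (SE 0.23, edgeR adjusted p 2e-12), and in set C alone 0.87 (edgeR adjusted p 0.085). In set C at 72 h it held 177, 67 and 0 counts, the last in the library of 9912 counts.

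novel_21ur-1358, in an intron of sta-1, which encodes a STAT family transcription factor, was high in larvae. It held 1528, 1498 and 1592 counts at 48 h in set A and 74, 80 and 123 at 72 h, and in set B 1588, 1543 and 1406 against 93, 135 and 236. The ages do not overlap. The log2 change was -2.92 (SE 0.23, edgeR adjusted p 3.3e-21).

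In snpc-1.2, adult-high novel_21ur loci were low and larva-high ones were near or above wild type. At 48 h edgeR called 0 of 756 tested novel_21ur loci higher (0 also at an unadjusted p below 0.05) and 318 lower, where 0.0587% of all loci tested were higher and 43.5% lower. DESeq2 size factors gave 60 higher and 202 lower, and the DESeq2 Wald test 43 and 185. At 72 h 145 were higher and 318 lower, beside 23.0% and 43.1% of all loci, but 359 and 245 when scaled by the sum of piRNA counts. The split depends on the scaling because TMM places the median log2 change of all loci at -0.83 at 48 h and -0.42 at 72 h, and the sum of piRNA counts at 0.14 and 1.51.

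The sums that follow are raw counts, which treat the libraries as equally deep. Lists were made of the novel_21ur loci called by edgeR between the ages in wild type of set B, under TMM, with a change of at least 2-fold. The 48 h list held 222 loci higher at 48 h, and the 72 h list 301 higher at 72 h. Set B holds neither single mutant. Lists under other scalings were not made. The 72 h list summed to 3731 ± 528 counts in snpc-1.2 at 48 h against 18020 ± 5397 in wild type of set A (20.7%), and to 2281 ± 680 against 33344 ± 8569 at 72 h (6.84%), with no overlap of the groups. The 48 h list was at 89.6% of wild type at 48 h, where the groups overlap, and at 200% at 72 h, with 4888 ± 2251 against 2440 ± 434 (all SD, n = 3). Annotated loci chosen in the same way were at 21.0% and 3.83% for the 72 h list, and at 86.2% and 225% for the 48 h list.

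Within the 72 h list the classes differed in snpc-1.2 adults. Overlapping loci were at 3.95% of wild type, identical copies at 0.405% and separate loci at 39.9%. Of 122 overlapping loci in the list, 119 were called lower and 0 higher by edgeR, and of 164 separate loci 102 were lower and 21 higher. Of 2318 annotated loci chosen in the same way, 2297 were lower and 5 higher, so in the calls the separate loci stood apart from them. In summed counts the annotated loci were at 3.83% of wild type, with identical copies below that and separate loci above it.

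**Figure D3:**
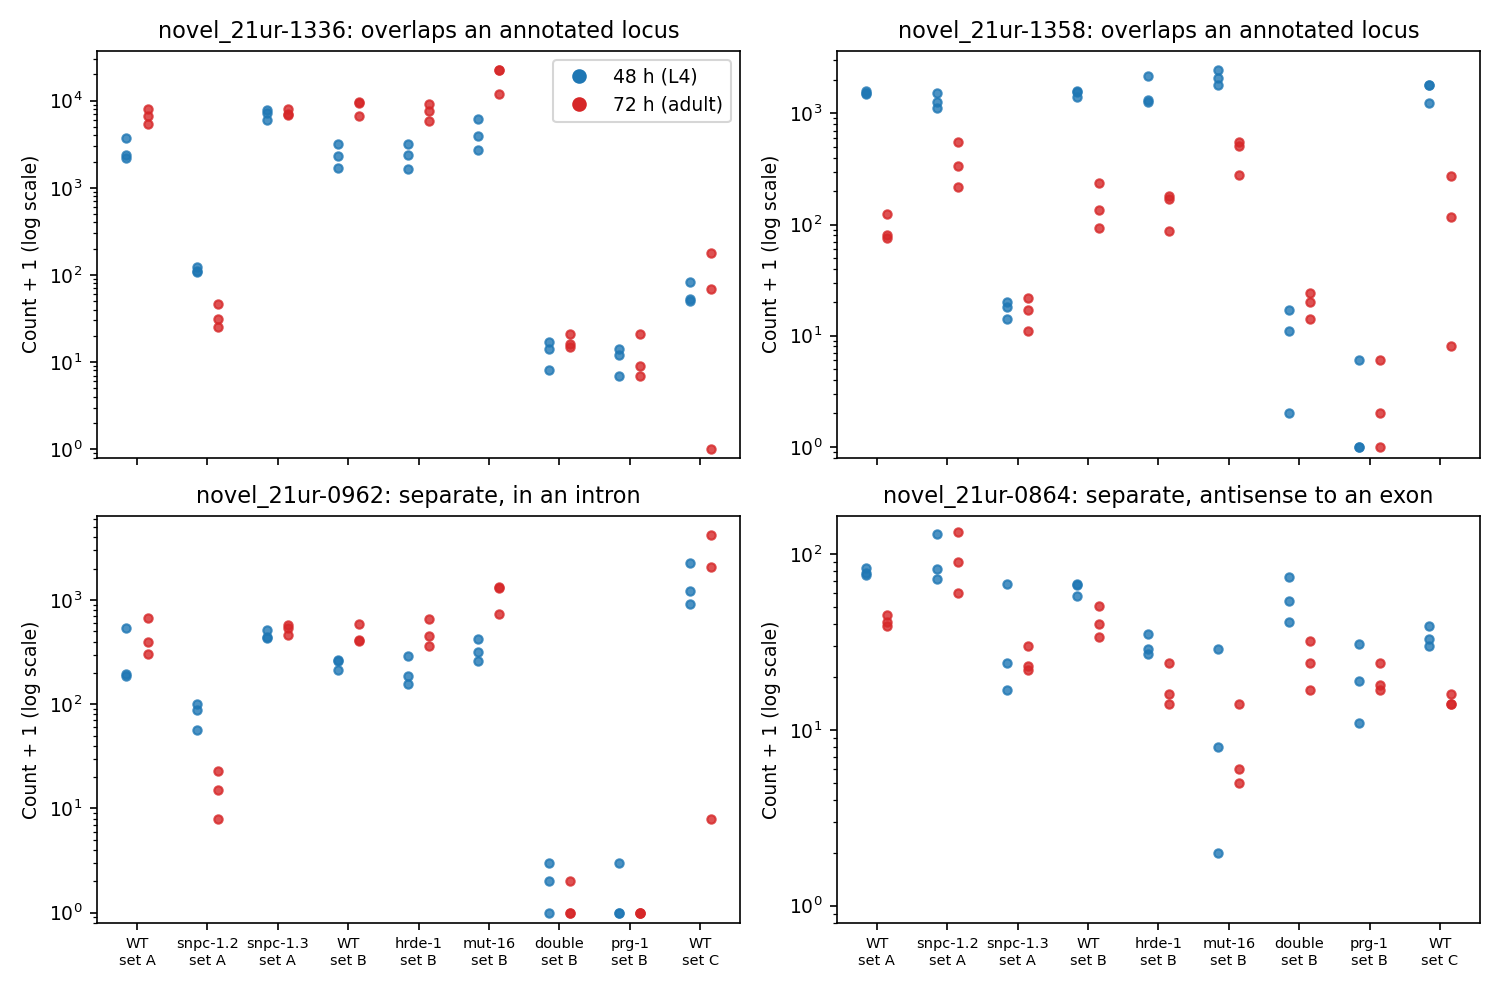
Counts of novel_21ur-1336, novel_21ur-1358, novel_21ur-0962 and novel_21ur-0864, 1 panel each, in every library (vertical axis, count + 1 on a log scale) by genotype and set (horizontal axis), in 1 colour for 48 h and another for 72 h. In snpc-1.2 adults novel_21ur-1336 falls to between 24 and 45 counts, in snpc-1.3 larvae novel_21ur-1358 falls to between 13 and 19, and in mut-16 novel_21ur-0864 falls while the other 3 do not.

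novel_21ur-1336 held 123, 107 and 109 counts in snpc-1.2 at 48 h and 30, 24 and 45 at 72 h, far below every wild-type library of set A. The log2 change was -4.93 (SE 0.44, edgeR adjusted p 1.1e-17) at 48 h and -7.68 (SE 0.51, edgeR adjusted p 2.7e-25) at 72 h, and the effect was more negative at 72 h, by -2.75. In snpc-1.3 it was above wild type at 48 h, with 6056, 7256 and 7782 counts (log2 2.45, SE 0.39, edgeR adjusted p 3.8e-08), which is near its adult level, and at 72 h it held 6827, 6969 and 8041 (log2 0.21, SE 0.37, edgeR adjusted p 0.85). With equal library sizes the larval rise in snpc-1.3 was log2 1.34 and the difference between ages in snpc-1.2 -3.04, neither of which passed the test (edgeR adjusted p 0.093 and 0.12).

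novel_21ur-0962, in an intron of egl-23, which encodes a potassium channel subunit, lies 91 bases from 21ur-4644 and overlaps no annotated locus. It held 88, 99 and 56 counts in snpc-1.2 at 48 h against 196, 537 and 187 in wild type (log2 -2.21, SE 0.45, edgeR adjusted p 3.1e-05). At 72 h it held 7, 14 and 22 against 396, 679 and 302 (log2 -4.99, SE 0.54, edgeR adjusted p 1.1e-12). In snpc-1.3 larvae it held 513, 433 and 442 (log2 1.73, SE 0.43, edgeR adjusted p 0.00029), which overlaps the highest wild-type library in raw counts. The call in snpc-1.2 larvae was lost in the DESeq2 Wald test (log2 -0.96, adjusted p 0.06), and that in snpc-1.3 larvae with equal library sizes (log2 0.59, edgeR adjusted p 0.49).

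The identical copy novel_21ur-1122 held 529, 661 and 533 counts in wild type of set A at 48 h and 80, 62 and 69 in snpc-1.2. At 72 h it held 873, 1574 and 794 in wild type and 4, 7 and 27 in snpc-1.2. The mutant was below every wild-type library at both ages, by log2 -3.37 (SE 0.47) and -6.47 (SE 0.57).

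In snpc-1.3, larva-high novel_21ur loci were low at 48 h. At that age 327 of 756 novel_21ur loci were higher and 232 lower, beside 38.6% and 38.7% of all loci tested; the split was 246 and 254 when scaled by the sum of piRNA counts, 222 and 255 with DESeq2 size factors, and 33 and 258 with equal library sizes. At 72 h 2 were higher and 28 lower, beside 0.129% and 9.26%. The 48 h list summed to 2125 ± 233 counts against 25456 ± 654 in wild type at 48 h (8.35%) and was at 58.4% at 72 h. The 72 h list summed to 34525 ± 1611 at 48 h, 192% of wild type, and was at 109% at 72 h, where the groups overlap. Annotated loci were at 5.83% and 49.5% for the 48 h list and at 181% and 110% for the 72 h list. Separate loci of the 48 h list kept 13.5% in snpc-1.3 larvae, and overlapping loci 6.46%. Both single mutants share the wild-type libraries of set A.

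novel_21ur-1358 held 13, 19 and 17 counts in snpc-1.3 larvae (log2 -5.48, SE 0.46, edgeR adjusted p 5.1e-19) and 21, 10 and 16 in snpc-1.3 adults (log2 -2.49, SE 0.45, edgeR adjusted p 1.4e-05). In snpc-1.2 larvae it held 1523, 1114 and 1253 (log2 -0.61, SE 0.36, edgeR adjusted p 0.15), and in snpc-1.2 adults 338, 216 and 557, above the 74, 80 and 123 of wild type (log2 1.91, SE 0.38, edgeR adjusted p 7.8e-06). novel_21ur-1193, an identical copy of 21ur-4471, showed the same order of levels, with 935, 641 and 1336 counts in wild-type larvae and 62, 55 and 45 in snpc-1.3 larvae. novel_21ur-1319 fell from a mean of 1042 to 17.7 counts in snpc-1.3 larvae (log2 -4.83, SE 0.37, edgeR adjusted p 2.9e-21).

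The change in each single mutant differed between the ages for many novel_21ur loci. For snpc-1.2 the test of the difference called 120 novel_21ur loci higher and 44 lower at 72 h than at 48 h, beside 22.1% and 8.85% of all loci; scaled by the sum of piRNA counts it called 237 and 20, and with equal library sizes 0, with 80 and 52 at an unadjusted p below 0.05. For snpc-1.3 it called 61 and 208, beside 12.9% and 26.1%, but 76 and 90 with DESeq2 size factors and 49 and 0 with equal library sizes.

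**Figure D4:**
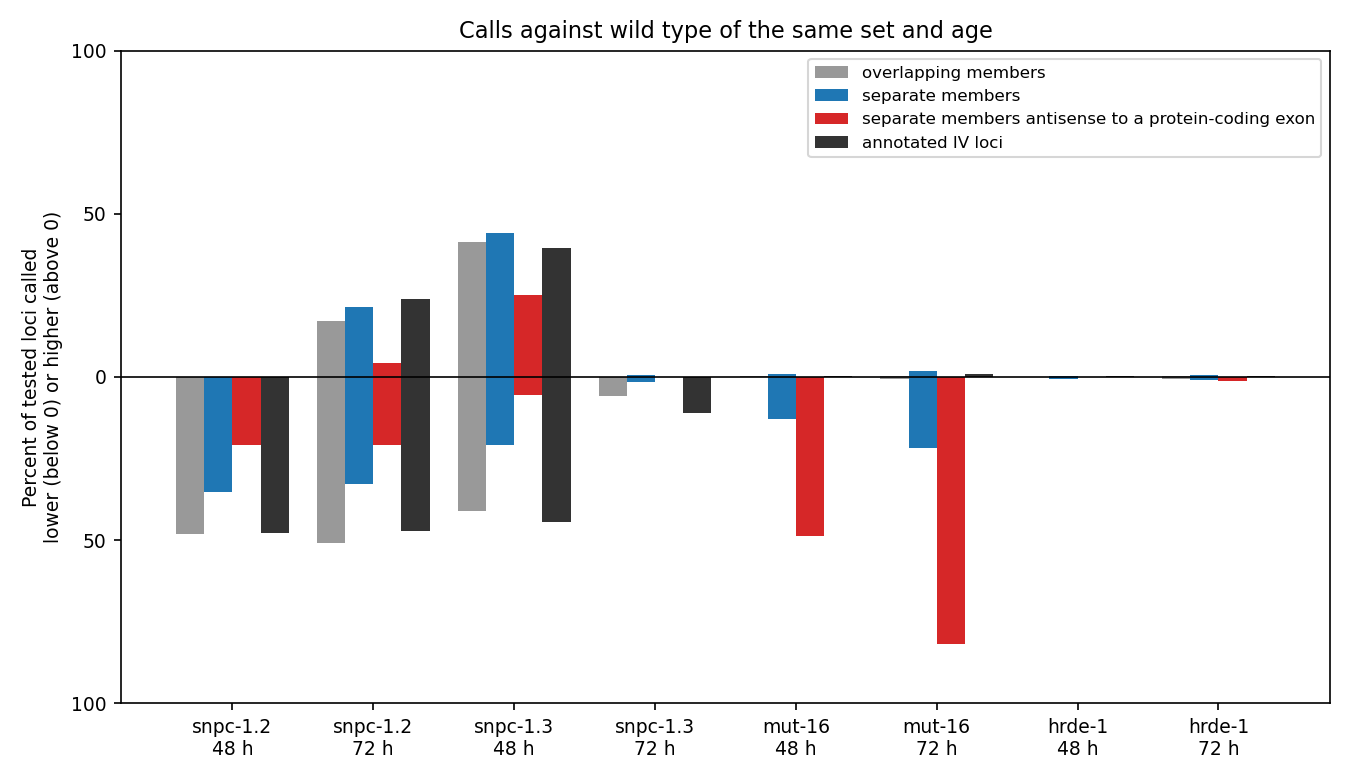
Percent of the tested loci called higher (bars above 0) or lower (bars below 0) than wild type of the same set and age (vertical axis) in each comparison scaled by TMM (horizontal axis), with 1 bar colour for each class of loci, annotated chromosome IV loci included. In mut-16, lower calls are concentrated in separate loci opposite to protein-coding exons, with 59 of 72 at 72 h.

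In the double mutant most piRNA counts were lost, and the separate novel_21ur loci kept a larger part of theirs than the overlapping and annotated loci. Overlapping loci were at 1.59% of wild type of set B at 48 h and 1.66% at 72 h, and annotated loci at 1.59% and 2.30%. Separate loci were at 22.8% and 23.2%. Inside the rich parts separate loci were at 7.39% and 9.07%, and outside at 84.9%, where the groups overlap, and 73.3%. Separate loci opposite to protein-coding exons were at 80.5% at 48 h, with 473 ± 132 counts and overlap with wild type, and at 56.8% at 72 h, with 410 ± 70 counts (SD, n = 3). The 197 annotated loci opposite to protein-coding exons were at 1.60% and 1.27%.

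The novel_21ur share of chromosome IV counts was 13.6% ± 0.58 at 48 h and 9.99% ± 0.66 at 72 h in the double mutant (SD, n = 3), above every wild-type library of set B. The set C wild-type library of 9912 counts, at 15.0%, was above every double mutant library. Relative to the sum of piRNA counts, edgeR called 160 of 756 novel_21ur loci higher and 87 lower at 48 h, beside 12.5% and 20.4% of all loci tested, and 172 and 87 at 72 h, beside 17.2% and 16.4%. TMM gave 148 and 216, and 99 and 243. Equal library sizes, which compare raw counts, gave 12 higher and 572 lower at 48 h, beside 0.811% and 86.6% of all loci, and 6 and 500 at 72 h, beside 0.517% and 74.6%. Of the 72 tested loci opposite to protein-coding exons, 56 and 52 were higher relative to the sum and 0 lower at either age, but 6 higher and 15 lower, and 2 and 26, with equal library sizes. Of the 73 loci of this kind, 21 had a set B wild-type mean of at least 10 counts. A locus with fewer could hardly be called lower relative to the sum in libraries this small, and may have passed the filter through them. The split relative to the sum therefore says little about such loci.

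novel_21ur-0644, on the same strand as an exon of a pseudogene, exceeded wild type in raw counts. It held 24, 8 and 12 counts at 48 h in wild type against 105, 41 and 87 in the double mutant, and 32, 25 and 21 against 116, 159 and 104 at 72 h. The groups do not overlap. Relative to the sum of piRNA counts, the log2 change was 7.51 (SE 0.70, edgeR adjusted p 1.5e-10) in larvae and 7.07 (SE 0.67, edgeR adjusted p 1.2e-10) in adults. In snpc-1.2 adults it held 110, 101 and 180 counts against 34, 56 and 18 (log2 1.86, SE 0.44, edgeR adjusted p 0.00025), and it was at 0 in all prg-1 libraries.

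novel_21ur-0840, outside genes, held 62, 45 and 59 counts in the double mutant at 48 h against 38, 46 and 51, and 32, 53 and 50 at 72 h against 38, 49 and 32. The groups overlap at both ages. novel_21ur-0673, on the same strand as an exon of scrm-8, a phospholipid scramblase family gene, held 111, 35 and 103 at 48 h against 59, 28 and 50, and these groups overlap as well. In prg-1, novel_21ur-0840 held 0, 0 and 1 counts at 48 h and novel_21ur-0673 held 0 in all 3 libraries. The overlapping locus novel_21ur-1365 was higher relative to the sum of piRNA counts but lower in raw counts, with 111, 43 and 138 against 410, 269 and 325 at 48 h.

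In prg-1 the novel_21ur loci that overlap an annotated locus lost nearly all counts, and the separate loci outside the rich parts lost fewer. Overlapping loci were at 0.198% of wild type at 48 h and 0.237% at 72 h, against 0.249% and 0.272% of annotated loci. Separate loci were at 6.48% and 12.2%. Inside the rich parts these were at 1.32% and 3.78%, and outside at 27.2% and 42.0%, with means of 338 against 1245 and 481 against 1145 counts. The 292 annotated loci outside the rich parts were at 0.336% and 1.31%.

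Separate loci opposite to protein-coding exons summed to 588 ± 44 counts in wild type of set B and 172 ± 73 in prg-1 at 48 h (29.3%), and to 722 ± 73 and 379 ± 99 at 72 h (52.5%; SD, n = 3), with no overlap. Annotated loci opposite to protein-coding exons were at 0.380% and 0.534%. The novel_21ur share of chromosome IV counts reached 19.7% ± 2.4 at 48 h and 27.0% ± 2.2 at 72 h, above every library of wild type, the one of 9912 counts included.

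Relative to the sum of piRNA counts, edgeR called 56 of 756 novel_21ur loci higher and 28 lower in prg-1 at 48 h, beside 4.88% and 5.25% of all loci tested, and 69 and 32 at 72 h, beside 5.26% and 6.86%. TMM gave 54 and 102, and 62 and 103, and at 72 h DESeq2 size factors gave 69 and 11. Equal library sizes gave 2 higher and 672 lower at 48 h, beside 0.176% and 92.9% of all loci, and 9 and 592 at 72 h, beside 0.388% and 83.6%. All loci that edgeR called higher relative to the sum at either age were separate, and 31 and 43 of them lay opposite to protein-coding exons. Here too, a locus with few wild-type counts could pass the filter through the prg-1 libraries and could hardly be called lower. The DESeq2 Wald test split the calls otherwise, with 110 higher and 15 lower at 48 h and 224 and 12 at 72 h, and its higher calls included 8 and 91 overlapping loci. That test placed the median log2 change of all 8512 loci at 0.89 and 1.65, where the edgeR fit by the sum placed it at -5.21 and -4.15. Its calls therefore reflect a shift of all loci and are not particular to the novel_21ur loci.

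Among the 336 novel_21ur loci with a wild-type mean of at least 10 counts in set B, 16 kept over 10% of it in prg-1. All 16 were separate and outside the rich parts, 11 lay opposite to a protein-coding exon and 14 began with TT. Of 4969 annotated loci with that mean, 1 kept over 10%. The 16 are described without a test because they were chosen by these values. The locus just inside the limit kept 11.7% and the one just outside 2.47%. They overlap little among themselves, making 15 stretches, of which 1 holds novel_21ur-0848 and novel_21ur-0850.

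novel_21ur-0897, opposite to sqst-1, kept most. It held 6, 11 and 13 counts in wild type and 13, 8 and 18 in prg-1 at 48 h, and 11, 15 and 11 against 22, 34 and 34 at 72 h. The groups overlap at 48 h and not at 72 h, and over both ages prg-1 was at 193% of wild type. In mut-16 it held 1, 0 and 1 counts at 48 h and 3, 1 and 5 at 72 h, below every wild-type library.

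novel_21ur-0850 and novel_21ur-0848, on the same strand as an exon of Y59H11AR.4, were at 186% and 164% of wild type in prg-1. novel_21ur-0850 held 34, 50 and 26 counts at 48 h in wild type, 116, 35 and 30 in prg-1 and 0, 3 and 13 in mut-16. In mut-16 novel_21ur-0848 was called lower at 48 h (log2 -2.85, SE 0.74, edgeR adjusted p 0.013) and at 72 h (log2 -3.88, SE 1.00, edgeR adjusted p 0.0045). The larval call of novel_21ur-0848 was lost without mut-16 replicate 1 (log2 -2.44, edgeR adjusted p 0.17), mut-16 replicate 2 (log2 -2.94, edgeR adjusted p 0.056) or wild type replicate 2 (log2 -2.55, edgeR adjusted p 0.088). For novel_21ur-0850 the edgeR adjusted p was 0.077 and 0.055.

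novel_21ur-0654, outside genes, was at 107% and novel_21ur-0648, opposite to Y94H6A.10, at 88.2% of wild type in prg-1. novel_21ur-0654 held 15, 23 and 18 counts at 48 h in wild type, 15, 8 and 11 in prg-1, 3, 3 and 7 in mut-16, and 2, 0 and 2 in hrde-1. Its hrde-1 libraries lie below those of wild type, but edgeR did not call it (adjusted p 0.12 at 48 h and 0.052 at 72 h) except at 48 h with the replicate number as a block (log2 -3.62, edgeR adjusted p 0.013). In snpc-1.3 it held 3, 2 and 2 at 48 h against 9, 7 and 9.

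**Figure D5:**
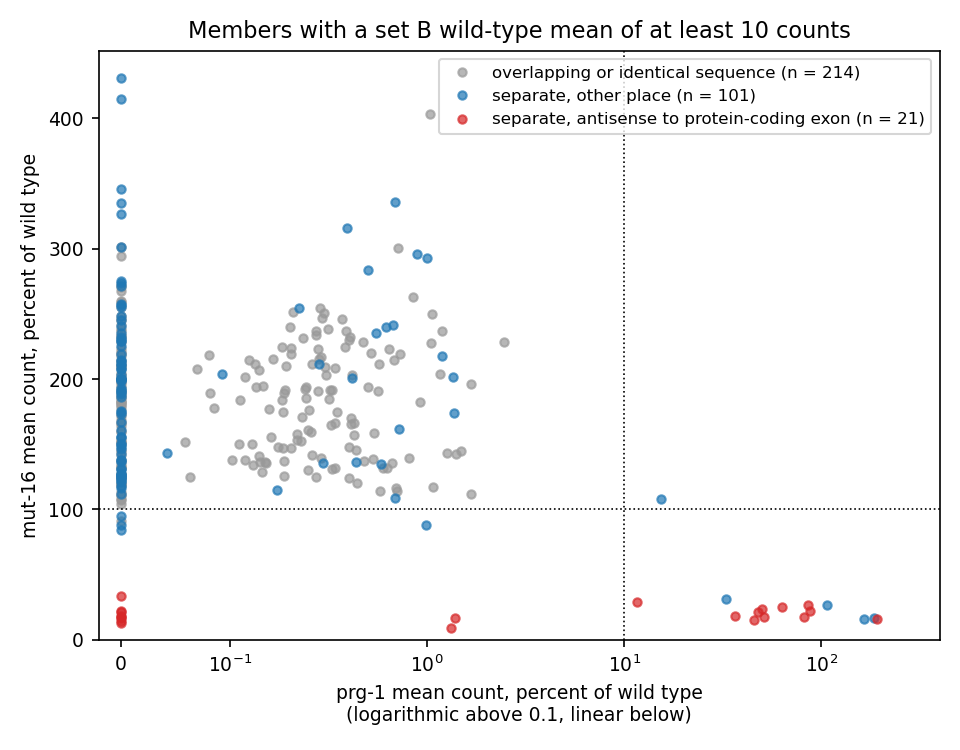
Mean count in mut-16 (vertical axis) against mean count in prg-1 (horizontal axis, logarithmic above 0.1 and linear below), each as a percent of set B wild type with both ages pooled, for the 336 novel_21ur loci with a wild-type mean of at least 10 counts; colours mark 214 overlapping or identical loci, 101 other separate loci and 21 separate loci opposite to a protein-coding exon. All 21 lie between 9.21 and 33.8% in mut-16, and they spread from 0 to 193% in prg-1.

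In mut-16 most novel_21ur loci were at or above wild type, as annotated loci were, and the separate loci opposite to protein-coding exons were low. All novel_21ur loci together were at 140% of wild type at 48 h and 226% at 72 h, and annotated loci at 137% and 239%. Separate loci inside the rich parts were at 132% and 235%. Separate loci opposite to protein-coding exons summed to 122, 86 and 224 counts in mut-16 at 48 h against 546, 634 and 583 in wild type, which is 24.5%. At 72 h they summed to 121, 170 and 274 against 708, 801 and 657, which is 26.1%. Every mut-16 library was below every wild-type library. The 197 annotated loci opposite to protein-coding exons were at 131% and 229%.

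edgeR called 4 of 756 novel_21ur loci higher and 50 lower in mut-16 at 48 h, beside 0.435% and 3.77% of all loci tested, and 8 and 86 at 72 h, beside 1.02% and 6.81%. Equal library sizes gave 43 and 29 at 72 h, beside 4.46% and 2.76%, as they move the median log2 change of all loci from 0.19 to 1.26. Of 72 tested loci opposite to protein-coding exons, 35 were lower at 48 h and 59 at 72 h and 0 were higher; at an unadjusted p below 0.05 61 and 67 were lower and 0 higher, and the DESeq2 Wald test called 35 and 55 lower and 0 higher. At equal library sizes 23 and 20 were lower and 0 higher. Of 104 annotated loci of this kind tested, 1 was higher and 3 lower at 48 h, and 3 and 3 at 72 h. The number of calls rests in part on single libraries: over all novel_21ur loci it went from 54 to 13 at 48 h without mut-16 replicate 1 and to 30 without replicate 2, and from 94 to 53 at 72 h without replicate 1. Of the loci opposite to protein-coding exons, 10 at 48 h and 36 at 72 h were lower without replicate 1.

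The 25 novel_21ur loci under 50% of wild type in mut-16, among the 336, were all separate, and 23 lay outside the rich parts. They include all 21 separate loci opposite to a protein-coding exon that have at least 10 counts. These 21 make 18 stretches and had a median of 18.5% in mut-16. In prg-1 the same 21 split, with 11 over 10% of wild type and 10 at or under 1.39%.

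novel_21ur-0864, opposite to C46C2.3, held 66, 57 and 67 counts at 48 h in wild type of set B against 7, 1 and 28 in mut-16. At 72 h it held 33, 39 and 50 against 4, 5 and 13. The groups do not overlap. The log2 change was -2.74 (SE 0.61, edgeR adjusted p 0.0037) in larvae and -3.45 (SE 0.68, edgeR adjusted p 0.00033) in adults. Without mut-16 replicate 1 the larval change was -2.33 and no longer called (edgeR adjusted p 0.084). In prg-1 it held 18, 10 and 30 counts at 48 h and 17, 23 and 16 at 72 h, and in the double mutant 73, 53 and 40, and 16, 23 and 31.

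novel_21ur-0880, opposite to R11A8.1, held 25, 27 and 22 counts at 48 h in wild type against 0, 2 and 4 in mut-16 (log2 -3.84, SE 0.67, edgeR adjusted p 3.9e-05), and 25, 31 and 32 against 5, 5 and 8 at 72 h (log2 -3.27, SE 0.54, edgeR adjusted p 5.5e-06). Unlike novel_21ur-0864, it was at 0 in all prg-1 libraries. novel_21ur-0858, opposite to C01F6.14, was also at 0 in all prg-1 libraries. It held 14, 19 and 24 counts at 48 h in wild type against 0, 1 and 5 in mut-16 (log2 -3.48, SE 0.65, edgeR adjusted p 0.0001).

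novel_21ur-0638, opposite to Y76B12C.8, held 21, 20 and 17 counts at 48 h in wild type, 1, 1 and 6 in mut-16 (log2 -3.12, SE 0.70, edgeR adjusted p 0.0017) and 2, 3 and 11 in prg-1. At 72 h it held 23, 30 and 38 in wild type, 7, 8 and 15 in mut-16 (log2 -2.59, SE 0.53, edgeR adjusted p 0.00028) and 20, 23 and 35 in prg-1. The prg-1 libraries thus overlap wild type at 72 h and not at 48 h. The mut-16 call was lost at 48 h without mut-16 replicate 1 (log2 -2.60, edgeR adjusted p 0.061) and at 72 h with equal library sizes (log2 -1.59, edgeR adjusted p 0.076).

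Summed over the loci of a gene, prg-1 ran from near 0 to the level of wild type. The 9 loci of C01F6.14 summed to 77, 99 and 86 counts at 48 h in wild type, 1, 1 and 0 in prg-1, 2, 6 and 26 in mut-16, 111, 91 and 93 in hrde-1, and 60, 26 and 48 in the double mutant. The 7 loci of Y57G11C.499 summed to 43, 47 and 63 in wild type, 1, 2 and 0 in prg-1, 4, 2 and 18 in mut-16, 33, 47 and 37 in hrde-1, and 64, 48 and 53 in the double mutant. Both sums were below every wild-type library in prg-1 and in mut-16, and overlapped wild type in hrde-1.

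The 4 loci of sqst-1 summed to 14, 24 and 23 counts at 48 h in wild type, 18, 13 and 26 in prg-1, 1, 1 and 5 in mut-16, 31, 19 and 25 in hrde-1, and 52, 42 and 38 in the double mutant. The 5 loci of Y94H6A.10 summed to 27, 38 and 42 in wild type, 34, 11 and 25 in prg-1, 1, 6 and 2 in mut-16, 17, 22 and 10 in hrde-1, and 3, 13 and 21 in the double mutant. In both genes prg-1 overlapped wild type at this age and mut-16 did not, and the double mutant was above wild type for sqst-1 and below it for Y94H6A.10. In hrde-1 Y94H6A.10 was below every wild-type library, and sqst-1 overlapped wild type.

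Other genes lay in between in prg-1. The 4 loci of Y67D8C.6 summed to 24, 35 and 19 counts at 48 h in wild type, 6, 0 and 6 in prg-1, 0, 0 and 11 in mut-16, 60, 32 and 43 in hrde-1, and 50, 23 and 42 in the double mutant. At 72 h they summed to 50, 49 and 38 in wild type and 5, 9 and 10 in prg-1. The 6 loci of F58D2.4 summed to 57, 66 and 39 at 72 h in wild type, 13, 33 and 25 in prg-1, 1, 8 and 17 in mut-16, and 49, 42 and 52 in hrde-1. Both genes were below every wild-type library in prg-1 and in mut-16 at these ages. In hrde-1, F58D2.4 overlapped wild type at 72 h, and Y67D8C.6 overlapped it at 48 h. At 72 h Y67D8C.6 held 62, 82 and 68 counts in hrde-1, above every wild-type library of set B.

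In hrde-1 few novel_21ur loci changed. edgeR called 1 of 756 higher and 2 lower at 48 h, beside 0.223% and 0.587% of all loci tested, and 3 and 5 at 72 h, beside 0.364% and 1.05%; at an unadjusted p below 0.05 the counts were 22 and 34, and 32 and 34. With the replicate number as a block, 1 was higher and 7 lower at 48 h, and 14 were called at 72 h. Separate loci opposite to protein-coding exons summed to 487, 403 and 463 counts at 48 h, 76.7% of wild type, below every wild-type library, and to 514, 685 and 621 at 72 h, 84.0% and overlapping wild type. Annotated loci of this kind were at 109% and 128%. Of the 72 tested, 0 were called at 48 h (3 higher and 14 lower at an unadjusted p below 0.05; 0 by the DESeq2 Wald test; 4 lower with the replicate block), and 1 was lower at 72 h. The double mutant, prg-1, mut-16 and hrde-1 share the wild-type libraries of set B. Among these, replicate 3 at 72 h is titled as resequenced, and whether it replaces an earlier library is not stated.

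novel_21ur-0904 rose in hrde-1. It held 5, 7 and 8 counts at 48 h in wild type against 45, 14 and 28 in hrde-1 (log2 2.02, SE 0.51, edgeR adjusted p 0.022), and 5, 10 and 8 against 48, 84 and 48 at 72 h (log2 2.88, SE 0.49, edgeR adjusted p 7e-05). The groups do not overlap. In mut-16 it held 0, 0 and 0 counts at 48 h and 0, 1 and 0 at 72 h. novel_21ur-0903, which overlaps it, held 8, 5 and 4 counts at 72 h in wild type against 27, 25 and 30 in hrde-1 (log2 2.23, SE 0.55, edgeR adjusted p 0.012), so these are not independent. The 48 h call of novel_21ur-0904 was lost in the DESeq2 Wald test (adjusted p 0.12), with equal library sizes (edgeR adjusted p 0.19) and without any 1 of the libraries except hrde-1 replicate 2, at log2 1.79 to 2.20. The call of novel_21ur-0903 was lost with equal library sizes (edgeR adjusted p 0.13) and without hrde-1 replicate 1 or 3 or wild type replicate 2 or 3, at log2 2.04 to 2.12.

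novel_21ur-0900, opposite to B0001.5, was at 0 in all hrde-1 libraries, against 7, 2 and 3 counts in wild type at 48 h and 11, 7 and 8 at 72 h (edgeR adjusted p 0.0018 at 72 h; 0.079 at 48 h, and 0.032 with the replicate block). It held 0, 0 and 0 counts in mut-16 at 48 h and 0, 1 and 0 at 72 h. novel_21ur-1446 and novel_21ur-1447, which overlap each other and 21ur-7611, were lower in hrde-1 adults, the first by log2 -3.64 (SE 0.98, edgeR adjusted p 0.02) and the second by log2 -2.65 (SE 0.70, edgeR adjusted p 0.022). Both calls were lost with equal library sizes (edgeR adjusted p 0.074 and 0.13) and without hrde-1 replicate 1 (log2 -3.25 and -2.19), hrde-1 replicate 2 (-3.79 and -2.30) or wild type replicate 2 (-3.55 and -2.46), and that of novel_21ur-1446 also without wild type replicate 1 (-3.44). The DESeq2 Wald test did not call novel_21ur-1447 (adjusted p 0.098).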

How the data were processed

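Small RNA libraries were made after a polyphosphatase treatment of the RNA, per the labels' protocols. The deposited counts are raw whole numbers per piRNA locus, per the file headers. The submitters' processing notes name Trimmomatic 0.39, Bowtie 1.1.1, HTSeq, edgeR and WBcel235. A second deposited table holds batch-corrected log2 CPM, per the file headers; it gave coordinates and sequences and its log2 values were not tested. Of 66 samples, 54 were analysed and 12 were not analysed here; 12 columns that match no sample were not used.

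Counts were fitted with edgeR 4.0.16 (R 4.3.3, limma 3.58.1; glmQLFit, robust, filterByExpr), with 1 mean per combination of set, genotype and age, and the procedure was tested on simulated data. The simulated mutants had wild-type levels with a limited set of loci changed. The simulation therefore did not cover the loss of most piRNA counts in prg-1 and the double mutant. The design had been written for all groups with a column. SE is the unshrunken log2 change over the root of F; printed changes are shrunken. DESeq2 1.42.0 was an alternative, beside other scalings, no filter, a replicate block and leaving out each library. Deviations of libraries with the same number were all correlated over 0.1 for hrde-1 and wild type at 48 h alone (0.108 to 0.182), so the numbers were taken to pair samples there, from the data and not the labels, and the blocked values stand beside that comparison. The library of 9912 counts stayed in unless stated. Gene overlaps came from the WBcel235 annotation.

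Members and lists were chosen with earlier results of these data known, and the 3 classes, the age lists and the position lists after the values were seen. Loci named were the 10 most abundant, up to 5 per direction and comparison with a call, a change of 2-fold or more and groups that do not overlap, the 5 kept most in prg-1, the 5 nearest to an annotated locus and the 5 most abundant opposite to exons; novel_21ur-0903 was named for its overlap with another.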

Additional observations from a re-analysis of the deposited data

Results flagged for a closer look

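The 9 wild-type libraries of an age were searched for a library far from the others in 26 groups of values, where chance marks about 1 in 20. At 72 h, wild type replicate 3 of set C, the library of 9912 counts, stood apart, with 15.0% of chromosome IV counts in novel_21ur loci and 10.8% in separate loci. In that library novel_21ur-0789 was lowest at 202 CPM, novel_21ur-1311 was lowest at 404 and novel_21ur-1358 was highest at 706. At 48 h, replicate 2 of set C was highest for novel_21ur-0789 (2592 CPM) and for novel_21ur-1433 (2921), and replicate 2 of set A for novel_21ur-1430 (1436).

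The effect of snpc-1.2 differed between 72 h and 48 h for 164 novel_21ur loci, and that of snpc-1.3 for 269, by edgeR's test of the difference. For snpc-1.2 these were 120 higher and 44 lower of 756 tested, beside 22.1% and 8.85% of all loci. For snpc-1.3 they were 61 and 208, beside 12.9% and 26.1%. Among the 10 most abundant novel_21ur loci, the effect of snpc-1.2 was lower at 72 h by these log2 differences: -2.75 in novel_21ur-1336, -3.10 in novel_21ur-1122, -1.50 in novel_21ur-1405, -2.44 in novel_21ur-1433, -2.78 in novel_21ur-0962, -2.35 in novel_21ur-1311 and -2.42 in novel_21ur-1430. It was higher by 2.52 in novel_21ur-1358. The effect of snpc-1.3 differed by -2.23 in novel_21ur-1336, -2.02 in novel_21ur-1122, -2.17 in novel_21ur-1433, -1.48 in novel_21ur-1311, -1.34 in novel_21ur-1430 and 2.99 in novel_21ur-1358. With equal library sizes no snpc-1.2 difference of these loci passed the test (adjusted p 0.11 to 0.22), and of the snpc-1.3 differences that of novel_21ur-1358 alone did (others 0.49 to 0.88). The snpc-1.2 difference of novel_21ur-1405 was also lost with the sum of piRNA counts (-0.50, adjusted p 0.31), without the filter (-1.29, 0.069) and without any of 6 single libraries (-1.35 to -1.43, 0.057 to 0.069): wild type replicate 1 at 48 h or 3 at 72 h, or snpc-1.2 replicates 1 or 2 at 48 h or 2 or 3 at 72 h. The snpc-1.3 differences of novel_21ur-1311 and novel_21ur-1430 were lost with DESeq2 size factors (-0.93 and -0.74, adjusted p 0.088 and 0.16), in the DESeq2 Wald test (0.051 and 0.11) and without the filter (-1.06 and -0.91). That of novel_21ur-1430 was also lost without wild type replicate 1 or 3 at 48 h or 2 at 72 h, or without snpc-1.3 replicate 1 of either age (-1.10 to -1.28).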

How the results depend on the processing

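Counts of novel_21ur loci called rested mostly on the scaling. With equal library sizes they were 291 (559 in the fit reported) for snpc-1.3 at 48 h, 584 and 506 (247 and 259) for the double mutant, 674 and 601 (84 and 101) for prg-1, 32 (54) for mut-16 at 48 h, 3 (8) for hrde-1 at 72 h, and 0 (164) and 49 (269) for the differences of the snpc-1.2 and snpc-1.3 effects between ages. TMM gave 156 and 165 for prg-1. The sum of piRNA counts gave 257 for the snpc-1.2 difference, and DESeq2 size factors 166 for that of snpc-1.3. The DESeq2 Wald test gave 236 for prg-1 at 72 h, 4 for hrde-1 at 72 h and 154 for the snpc-1.3 difference. Without the filter hrde-1 at 48 h had 9 (3), and set C alone gave 255 (626) for wild type across ages. The cause was not tested. A replicate block moved hrde-1 to 8 at 48 h and 14 at 72 h and other counts by less than 1.5 times. Outside hrde-1 at 48 h the numbers were not taken to pair samples; each library correlated best with its own number in 10 of 15 group pairs.

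Leaving out 1 library gave 600 to 663 calls for wild type across ages, 221 to 318 and 440 to 486 for snpc-1.2 at 48 h and 72 h, 542 to 563 and 24 to 28 for snpc-1.3, 199 to 242 and 206 to 256 for the double mutant, 58 to 81 and 80 to 103 for prg-1, 13 to 62 and 53 to 101 for mut-16, 0 to 1 and 3 to 6 for hrde-1, and 124 to 176 and 221 to 281 for the 2 differences. The share in novel_21ur loci ranged from 6.18 to 10.7% for wild type of set C at 72 h, 18.8 to 21.0% and 26.0 to 28.1% for prg-1. Without the most abundant novel_21ur and annotated locus it was 5.24% in wild type of set A at 72 h, 5.22 and 5.15% in wild type of set B, 5.17 and 5.09% in hrde-1, 5.24 and 4.90% in mut-16, and 5.47 and 5.23% in snpc-1.3.

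Of 2365 alternative values of named loci, 2105 kept direction and call, 229 lost the call, 21 gained it and 10 reversed. With equal library sizes novel_21ur-1365 was at log2 -1.78 and -1.24 in the double mutant, novel_21ur-0864 at -0.19 in the double mutant and -1.71 in prg-1 at 48 h, novel_21ur-0789 at -0.20 in snpc-1.3 at 48 h and novel_21ur-1405 at -0.005 across ages. novel_21ur-0789 was at -0.13 across ages in set C alone, and in snpc-1.2 at 48 h at 0.0194 with the sum of piRNA counts and 0.30 with DESeq2 size factors or the Wald test. Searches for upstream motifs, with both window lengths, were not run. At prg-1 depth, a locus with few wild-type counts cannot be told from loss, and intervals were not computed.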
